A study of Mus musculus with 24 samples.

Results

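The resting cortex of FVB mice was set against that of 3 other inbred strains. The comparison used the 12 arrays of mice given PBS (phosphate-buffered saline, the vehicle) among 24 arrays in the series: 3 from FVB, and 3 each from SV129, C57 (C57BL/6JOlaHsd by the design text) and C3H. All were male, received intraperitoneal injections from postnatal day 8 to day 18 and were 18 days old; no transgene or deletion was named for any group. The other 12 arrays came from mice of the same strains given CBE, or conduritol B-epoxide, which blocks glucocerebrosidase in the lysosome, at 25 mg per kg per day over the same days, again 3 per strain, and served as mice that the comparison had not used. Of the 41034 probe sets on the array, the 23521 that carry a single gene symbol (22180 genes) were compared.

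Inbred strains are fixed for different alleles, so a gene whose level differs between them may do so in every tissue or in 1 cell type. Cortex at this age is a mixture of neurons, astrocytes, microglia, vessels and oligodendrocytes that are still laying down myelin. Microglia make most of the brain's C1q, the recognition molecule that starts the classical complement cascade, while CD59 on the cell surface blocks the last step of that cascade. Heat-shock proteins of the HSP70 family refold damaged proteins, and retinal dehydrogenases make retinoic acid from vitamin A.

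4 promoter windows are shown because the genes behind them carry the main findings below: Hspa1b was among the highest genes in FVB relative to the other strains, Aldh1a1 had the largest fall apart from clones, and C1qb and C1qc are neighbours that were both low. Each window runs from 250 bases before to 50 bases after the annotated start, 5′ to 3′ on the gene's strand, and comes from RefSeq on build GRCm38.p6, an assembly of C57BL/6J and not of FVB. Hspa1b lies at chr17:34959189-34959488 on the minus strand, Aldh1a1 (the upstream of 2 annotated starts) at chr19:20492333-20492632 on the plus strand, C1qb at chr4:136886151-136886450 and C1qc at chr4:136892865-136893164, both on the minus strand.
Hspa1b: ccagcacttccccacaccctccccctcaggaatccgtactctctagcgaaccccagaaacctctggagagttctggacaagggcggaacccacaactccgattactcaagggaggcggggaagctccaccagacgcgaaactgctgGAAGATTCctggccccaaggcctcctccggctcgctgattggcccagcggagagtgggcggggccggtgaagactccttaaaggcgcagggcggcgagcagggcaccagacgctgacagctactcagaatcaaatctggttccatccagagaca
Aldh1a1: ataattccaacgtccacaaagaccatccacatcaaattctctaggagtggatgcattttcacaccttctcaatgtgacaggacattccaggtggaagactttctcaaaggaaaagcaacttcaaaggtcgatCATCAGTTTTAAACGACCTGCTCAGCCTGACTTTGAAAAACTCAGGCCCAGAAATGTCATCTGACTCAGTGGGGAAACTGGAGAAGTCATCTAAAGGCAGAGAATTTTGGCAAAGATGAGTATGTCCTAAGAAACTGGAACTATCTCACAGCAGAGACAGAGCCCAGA
C1qb: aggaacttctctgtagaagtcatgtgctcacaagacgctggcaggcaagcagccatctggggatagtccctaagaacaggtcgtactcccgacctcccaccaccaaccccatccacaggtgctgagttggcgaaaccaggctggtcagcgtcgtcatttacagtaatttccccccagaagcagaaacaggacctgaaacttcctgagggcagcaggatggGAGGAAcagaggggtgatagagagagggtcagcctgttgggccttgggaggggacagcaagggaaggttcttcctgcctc
C1qc: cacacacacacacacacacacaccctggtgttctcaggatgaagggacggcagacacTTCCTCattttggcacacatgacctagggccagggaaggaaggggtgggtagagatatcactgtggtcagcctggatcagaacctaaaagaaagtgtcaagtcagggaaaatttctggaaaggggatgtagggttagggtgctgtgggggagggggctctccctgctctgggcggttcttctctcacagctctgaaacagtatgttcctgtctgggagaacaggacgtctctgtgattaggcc
Capitals in Hspa1b mark GAANNTTC, the core of the heat shock element, which reads the same on both strands and occurs in 7.86% of the 32851 windows of 300 bases in the table; the C1qb window holds 2 matches, not in capitals here. Capitals in C1qb and C1qc mark GAGGAA or its reverse complement, letters of the site bound by Ets-family factors, found in 28.3% of all windows when both strands are searched. Capitals in Aldh1a1 mark the 168 bases that are also part of the promoter window of E030003E18Rik, an unnamed transcript on the same strand. A match describes the letters of the reference and not a binding event.

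Values are the deposited log2 signals, so a difference of 1 is 2-fold; differences are FVB minus the mean of the SV129, C57 and C3H group means. A gene was said to change when its adjusted p was under 0.05 (limma with Benjamini-Hochberg adjustment over the 23521 probe sets), and to stand apart when in addition all 3 FVB arrays lay above or all 3 below the range of the 9 other PBS arrays. FVB differed from the mean of the other strains at 707 probe sets (3.01% of those tested), 222 of them higher (0.944%) and 485 lower (2.06%). Of these, 370 probe sets of 365 genes stood apart (1.57%), 122 above the range (0.519%) and 248 below it (1.05%). Their median difference was 0.48 for those above and -0.42 for those below, beside 0.00 over all probe sets and a median standard error of 0.079. At 23 of the 370 the difference was 2-fold or more. By range alone, 775 probe sets (3.29%) had all 3 FVB arrays outside the 9 others.

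The number of calls leaned on single arrays: without FVB PBS array 2 it was 283, without FVB PBS array 3 it was 373, and the 370 that stood apart became 202 without FVB PBS array 2 and 572 without SV129 PBS array 1. After quantile normalization of the deposited values, 285 probe sets were higher and 381 lower, so the share of higher calls moved with the scaling. With the 9 other arrays taken as 1 group, an error that includes the spread between strains, 113 probe sets passed, and all 113 stood apart. The largest difference among those that stood apart belonged to 4933409K07Rik, a clone named after its values were seen, which has 8 probe sets. Of these, 5 were lower in FVB than in every other array, by -3.08 to -1.71, and 3 of the 5 hold the same values and are not independent. The other 3 probe sets of 4933409K07Rik went the opposite way, by 0.25 to 1.44, with FVB between C57 and the other strains. Against single strains, which share the FVB arrays, 689 probe sets passed against SV129 (2.93%), 1570 against C57 (6.67%) and 437 against C3H (1.86%), and 79 of the 370 passed against each of the 3. The same contrast built around the other strains gave 720 calls for SV129, 2003 for C57 and 499 for C3H. The labels name separate mice but no litters, and p-values measure the spread between these mice. Array medians ran from 4.18 to 4.20 in FVB and from 4.14 to 4.21 in the other strains. Array probes are designed against a reference sequence, and whether strain variants under the probes, those of MHC genes included, move a signal was not tested.

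The mean signal of excitatory cortical neuron markers was 8.86 to 9.05 on the FVB arrays and 8.80 to 9.16 on the others. Markers of the thalamus averaged 5.49 to 5.54 in FVB and 5.41 to 5.71 in the others. None of the 14 measured changed, beside 0.906% of all genes higher and 2.11% lower, so the count says little for a list this short. Choroid plexus and ependyma markers lay near the bottom of the scale at 3.83 to 3.95 in FVB, with a median of 3.84 in the others. Striatal markers were more variable in FVB, at 6.07 to 6.69 against 6.25 to 6.48 in the others. Of the 11 striatal markers measured 1 fell (9.09%, beside 2.11% of all genes), and their median difference was 0.03.

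Cd59a, which encodes the membrane-bound inhibitor of the complement attack complex, was the named gene with the largest difference above the range. Its log2 signal was 7.31, 6.94 and 7.17 in FVB, and 4.42 to 6.13 with a median of 5.62 on the 9 other arrays. The FVB arrays were all above the others, and the difference of 1.65 (SE 0.13, adjusted p = 1.68e-05, n = 3 against 9 in 3 strains) amounts to 3.1-fold. The other strains differed among themselves, with means of 4.74 in SV129, 5.66 in C57 and 6.07 in C3H. Mice carry a related copy, Cd59b, and a share of its RNA in this signal cannot be told apart.

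Hspa1b, the stress-inducible HSP70 whose promoter is shown above, read 6.82, 6.39 and 6.62 in FVB and 4.76 to 5.78 (median 5.07) elsewhere. It was 1.44 higher (SE 0.12, adjusted p = 1.99e-05). Hspa1a, its near-identical neighbour, read 3.96, 4.21 and 4.21 in FVB and 4.06 to 4.86 (median 4.40) elsewhere, with a difference of -0.25 that did not pass the test (adjusted p = 0.251). Array probes can bind RNA of both copies, so which copy carries the signal is uncertain. Of the 17 heat shock and chaperone genes measured 2 fell and Hspa1b was the 1 that rose (11.8% and 5.88%, beside 2.11% and 0.906% of all genes), Cryab, the lens and glial chaperone, missing the threshold at 0.64 (adjusted p = 0.0505). Hspa5, the chaperone of the endoplasmic reticulum, fell by 0.30 (adjusted p = 0.0104, but 0.0657 without FVB PBS array 2 and 0.0524 without array 3). Hspb8, a small heat shock protein, fell by 0.47 (adjusted p = 0.0152, but 0.056 to 0.0736 without any 1 of the 3 FVB arrays). Hspb8 in FVB (3.83 to 3.87) lay within the range of SV129 (3.68 to 4.12), while C57 (4.35 to 4.68) and C3H (4.47 to 4.68) were higher. With the 9 other arrays as 1 group its adjusted p was 0.356. The co-regulated chaperone genes Dnajb1 and Hsph1 differed by -0.13 and 0.02, neither past the test.

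**Figure D1:**
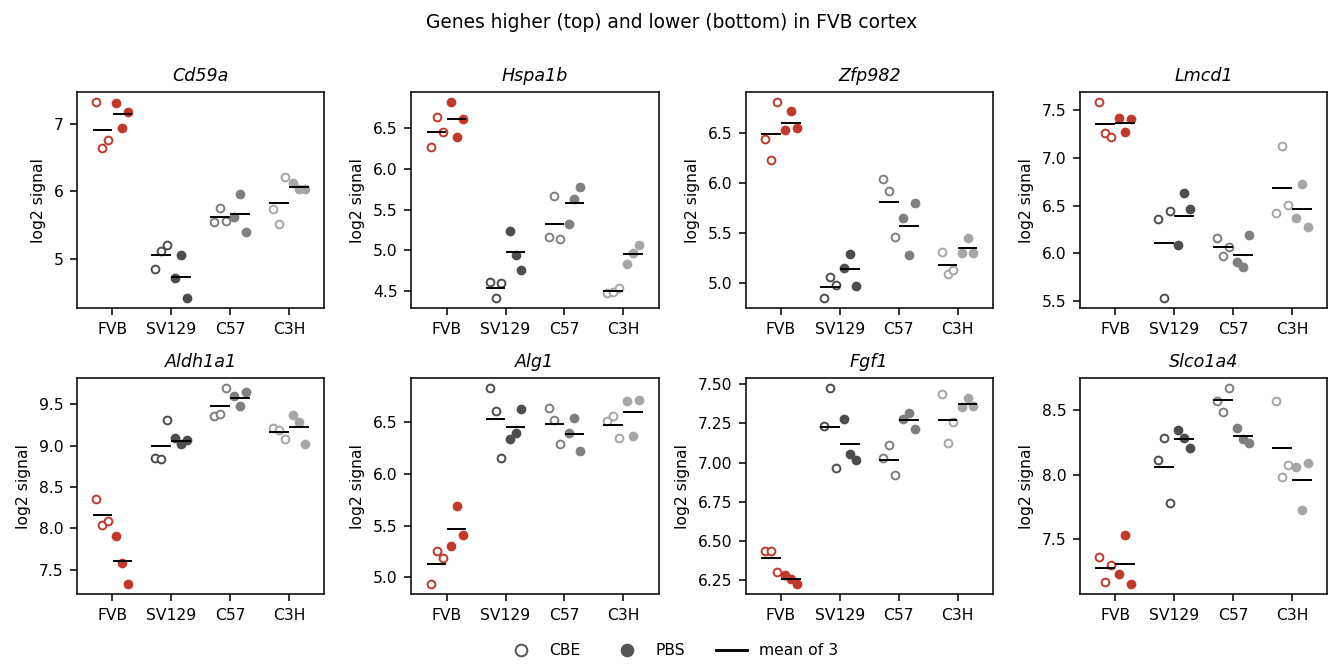
Log2 signal of 4 genes that were higher and 4 that were lower in FVB, for every array. Columns are the strains, open circles are CBE mice and filled circles PBS mice, and bars are means of 3 arrays. For Cd59a the 3 filled FVB circles lie at 6.94 to 7.31, above all 9 other filled circles (4.42 to 6.13), and for Aldh1a1 they lie at 7.33 to 7.91, below all 9 (9.02 to 9.65).

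Other named genes above the range served varied functions. Zfp982, a zinc finger gene, read 6.53, 6.71 and 6.55 in FVB against 4.97 to 5.79 elsewhere (difference 1.25, adjusted p = 1.68e-05). Lmcd1, a LIM-domain cofactor of transcription, read 7.41, 7.27 and 7.41 in FVB against 5.86 to 6.73 (1.09, adjusted p = 0.000294). Both passed against each of the 3 strains. Scoc, a coiled-coil protein of the Golgi, differed by 0.74, and Rpl32l, a ribosomal protein gene copy, by 1.01. Psmc3ip, a partner of the meiotic recombinases, read 4.74, 5.32 and 4.87 in FVB but 3.73 to 4.07 on the other arrays, all below the median of all values (4.18). Ccl28, a mucosal chemokine, showed the same pattern, with 4.48 to 4.97 in FVB and a median of 3.88 elsewhere, and no overlap. For these 2 genes the signal outside FVB was near the bottom of the scale, where a fold change is compressed.

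Calls of 6 of the 15 largest named rises depended on an array. Sez6l2, a neuronal membrane protein with complement-control domains, was 1.42 higher (adjusted p = 0.011; 0.0755 without FVB PBS array 2 and 0.056 without array 3). Cd209a, a lectin of dendritic cells, was 1.07 higher (adjusted p = 0.0148; 0.0984 without array 2 and 0.0518 without array 3), and Rprl2, a ribonuclease P RNA gene, 0.81 higher (0.0195; 0.112 without array 2 and 0.0779 without array 3). H2-T10, a non-classical MHC class I gene, was 0.76 higher (0.0123; 0.0811 without array 2). Islr, a gene of mesenchymal cells, was 0.79 higher (0.0211; 0.0652 to 0.0918 without any 1 of the FVB arrays). Aspa, which breaks down N-acetylaspartate in oligodendrocytes, was 0.75 higher (0.0387; 0.0612 to 0.143 without any 1 of 8 arrays: FVB 1, 2 and 3, SV129 3, C57 2 and 3, and C3H 1 and 3).

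Aldh1a1, a retinal dehydrogenase, was lower in FVB than in any other strain and had the largest fall apart from clones. It read 7.91, 7.58 and 7.33 in FVB, and 9.02 to 9.65 (median 9.28) on the other arrays. The difference of -1.68 (SE 0.10, adjusted p = 1.2e-06) is 3.21-fold, and the strain means of SV129, C57 and C3H were close to each other at 9.06, 9.58 and 9.23. E030003E18Rik, the transcript whose promoter window shares 168 bases with that of Aldh1a1, read 5.43, 5.32 and 4.94 in FVB and 6.19 to 6.91 elsewhere (-1.34, adjusted p = 0.000171). It was named after its values were seen.

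Fgf1, a fibroblast growth factor, was separated with little spread: 6.29, 6.26 and 6.22 in FVB against 7.02 to 7.41 (-0.997, SE 0.063, adjusted p = 1.35e-06). Alg1, the mannosyltransferase that adds the first mannose to the N-glycan precursor, read 5.30, 5.69 and 5.41 in FVB against 6.22 to 6.71 (-1.01, adjusted p = 0.000187). Cth, which makes cysteine and hydrogen sulfide, differed by -0.91, and Tpd52l1, a vesicle-trafficking protein, by -0.82. Each of these 4 genes passed against each of the 3 strains. Cox6a2, the muscle form of a cytochrome oxidase subunit, read 4.75 to 4.79 in FVB and 5.06 to 6.82 elsewhere, and Cntn5, a neuronal adhesion molecule, 5.27 to 5.61 in FVB and 5.73 to 7.36 elsewhere. Their adjusted p-values of 5.99e-05 and 0.00596 became 0.162 and 0.0847 with the 9 other arrays as 1 group. Matn2, a matrix protein, differed by -0.95 and Fam107a, an actin-binding protein induced by stress, by -0.91. Hspb3 fell by 0.92 (adjusted p = 0.0113; 0.0666 without FVB PBS array 2). Rpl34, a ribosomal protein gene, fell by 0.90 (0.0295; 0.0524 to 0.107 without FVB array 1, 2 or 3 or C3H array 3).

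Of 18 complement genes measured, 2 rose and 3 fell (11.1% and 16.7%, beside 0.906% and 2.11% of all genes). The median of the 18 was -0.02. C1qb read 7.36, 7.35 and 7.19 in FVB and 7.69 to 9.01 (median 8.21) elsewhere, and C1qc 4.85, 4.69 and 5.02 in FVB and 5.17 to 6.17 (median 5.68) elsewhere. The FVB arrays were below all others for both genes, by -0.92 (SE 0.10, adjusted p = 0.000198) and -0.81 (SE 0.11, adjusted p = 0.00136). The nearest strain was C3H, with means of 7.71 and 5.30, and against C3H alone neither passed the test. C1qa, the third chain of the same molecule, read 6.62, 6.98 and 6.60 in FVB and 6.28 to 7.18 elsewhere, with a difference of -0.09 (adjusted p = 0.769). C3ar1, the receptor of the C3a fragment, fell by 0.49 (adjusted p = 0.0109) and was named after its values were seen; it lost the call without FVB PBS array 2, when 2 complement genes fell. Serping1, the inhibitor of C1, was 0.46 higher (adjusted p = 0.00724), with FVB at 5.09 to 5.16 and C57 close to it at a mean of 4.97. With the 9 other arrays as 1 group, no complement gene fell and Cd59a was the 1 that rose; C1qb then had an adjusted p of 0.161.

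Other microglial genes did not follow C1qb and C1qc as a group. The 13 homeostatic microglia markers had a median difference of 0.00 and a mean signal of 6.24 to 6.36 in FVB and 6.01 to 6.58 elsewhere. Fcrls, an Fc receptor-like gene, was the 1 that changed (7.69%, beside 2.11% lower among all genes; difference -0.72, adjusted p = 0.00466), FVB being level with SV129 (means of 5.69 in FVB and 5.70 in SV129). Of 24 disease-associated microglia genes, 2 fell (8.33%, beside 2.11% of all genes): Cd68, a lysosomal protein of phagocytes (5.96, 5.74 and 5.74 in FVB, 6.11 to 7.33 elsewhere, difference -0.69, adjusted p = 0.000294; 0.136 in a fit of all 24 arrays), and Timp2, a protease inhibitor that other cells also make (-0.32, adjusted p = 0.0496; 0.0647 to 0.162 without any 1 of the FVB or C57 arrays, SV129 array 3 or C3H array 1 or 3). Pstpip2, a brake on macrophage activation, was 0.91 lower in FVB on the log2 scale (6.47 to 6.78 against 6.90 to 8.02, adjusted p = 0.00184) and passed against each strain. In bulk tissue, fewer cells of a type and less RNA per cell cannot be told apart.

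**Figure D2:**
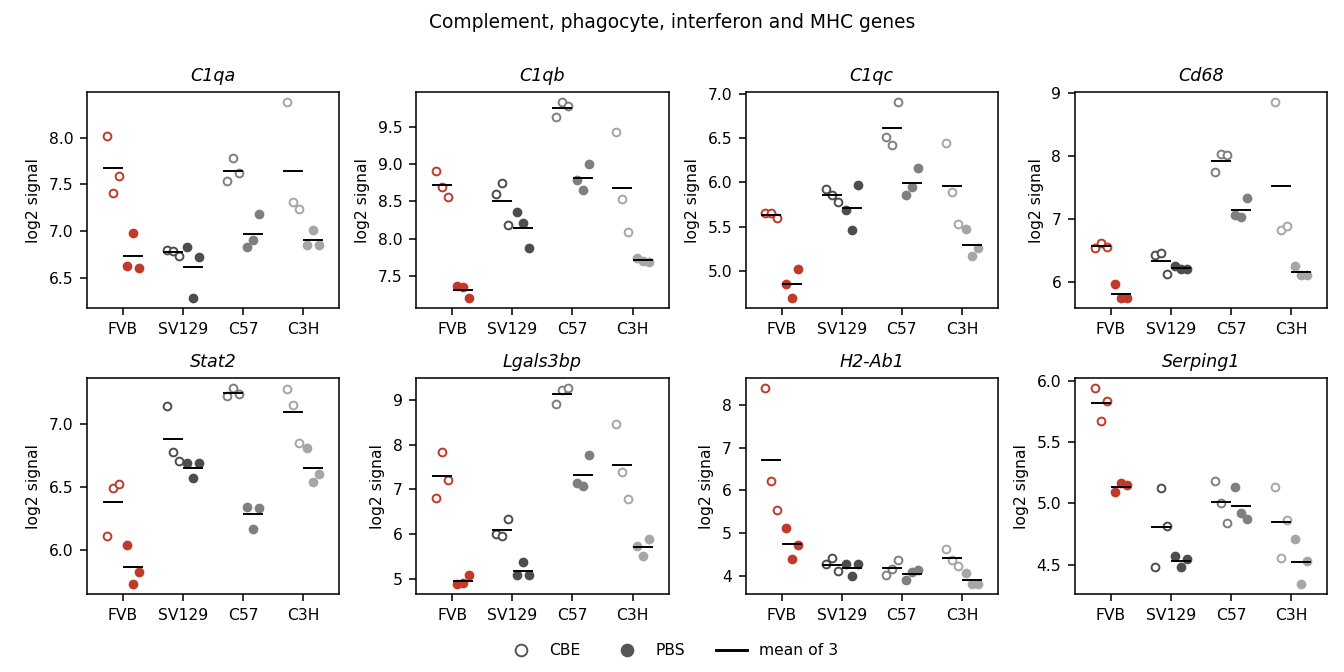
Log2 signal of 8 immune genes on every array, by strain; open circles are CBE mice, filled circles PBS mice, bars means of 3 arrays. Among filled circles FVB lies below all 9 others for C1qb, C1qc, Cd68 and Stat2, overlaps them for C1qa and Lgals3bp, and lies above them for H2-Ab1.

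Of 40 interferon-stimulated genes, 6 fell and none rose (15%, beside 2.11% lower among all genes), with a median of -0.19. The mean of the list was 4.36 to 4.41 on the FVB arrays and 4.43 to 4.96 on the others, so FVB was below all 9 by a narrow margin. In CBE mice the FVB means lay within the range of the others. Stat2, a subunit of the transcription factor that drives these genes, was the 1 of the 6 that stood apart: 6.04, 5.73 and 5.83 in FVB against 6.17 to 6.81 (-0.66, SE 0.08, adjusted p = 0.000628), past the test against each strain. Lgals3bp, a secreted glycoprotein, differed by -1.12 (adjusted p = 0.000563), but SV129 was close to FVB (means of 4.96 in FVB and 5.18 in SV129) and the difference came largely from C57 (7.33). C57 was also the highest strain for Bst2, a tether of viruses (-0.70, adjusted p = 0.00486; 0.151 in a fit of all 24 arrays), and for Rtp4 (-0.62, adjusted p = 0.0233; 0.0737 to 0.0927 without any 1 of the FVB arrays and 0.0575 in a fit of all 24), with means of 5.67 and 5.81. The number that fell was 3 without FVB PBS array 1 or array 3, and 1 with the 9 arrays as 1 group. MHC genes did not share a direction. H2-Ab1, the beta chain of a class II molecule, read 5.12, 4.40 and 4.72 in FVB and 3.80 to 4.29 elsewhere. It differed by 0.71 (adjusted p = 0.00802, but 0.277 in a fit of all 24 arrays). H2-Ab1 was the 1 change among 12 class II pathway genes (8.33%, beside 0.906% higher among all genes). Of 19 class I genes, H2-T10 rose and B2m, the light chain of class I molecules, fell. That is 5.26% in each direction, beside 0.906% higher and 2.11% lower among all genes. B2m differed by -0.47 (adjusted p = 0.0176). Its adjusted p was 0.208 in a fit of all 24 arrays, 0.0841 without FVB PBS array 2 and 0.103 without array 3. With the 9 other arrays as 1 group it was 0.702. For B2m, FVB (9.45 to 9.88) overlapped SV129 (9.67 to 10.05) and C3H (9.26 to 9.48), and C57 lay apart from the rest at a mean of 11.14.

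Myelin genes were high in FVB as a group, though few passed. All 16 measured members lay above 0, with a median of 0.68, and 4 rose (25%, beside 0.906% of all genes): Tspan2, a tetraspanin (10.52, 10.36 and 10.38 in FVB, 9.30 to 10.19 elsewhere, difference 0.54, adjusted p = 0.0106), Aspa (0.75, 0.0387), Cnp, a myelin enzyme (0.67, 0.0399), and Myrf, the transcription factor of myelination (0.57, 0.0476). Mog, a protein of the outer myelin sheath, read 9.04, 8.74 and 8.83 in FVB and 6.56 to 8.93 elsewhere, and its difference of 0.97 did not pass (adjusted p = 0.0549). Mbp, a major myelin protein, differed by 0.25 (adjusted p = 0.313). The mean of the list was 8.70, 8.41 and 8.43 in FVB and 7.11 to 8.52 (median 7.85) on the others, so the groups overlapped, C57 being the strain nearest to FVB. The count of 4 was not stable: it was 0 without FVB PBS array 1, 1 without FVB array 2 or 3, SV129 array 3, C57 array 2 or C3H array 1, 2 without C57 array 3 or C3H array 3, and 7 without SV129 array 1. It was also 0 with the 9 other arrays as 1 group and with an ordinary linear model. Tspan2 lost its call without FVB PBS array 1 (adjusted p = 0.0552). None of the 10 markers of oligodendrocyte precursors changed, and their median difference was 0.11. Beside 0.906% of all genes higher and 2.11% lower, that count says little for a list this short. Of 15 pericyte, smooth muscle and fibroblast genes 2 rose (13.3%, beside 0.906%): Abcc9, a potassium channel subunit of pericytes, and Dcn, a matrix proteoglycan, rose by 0.52 and 0.67 (adjusted p = 0.00792 and 0.0431). For Abcc9 the FVB arrays (7.37 to 7.74) overlapped those of SV129 (7.02 to 7.41). Its adjusted p was 0.0512 with an ordinary linear model and 0.0828 with the 9 other arrays as 1 group. In CBE mice Abcc9 in FVB (7.14 to 7.30) lay within the range of the other strains (6.77 to 7.34). Dcn had an adjusted p of 0.0568 to 0.18 without any 1 of the FVB or C3H arrays or C57 array 2 or 3. The part of these other cell types in the myelin values was not tested.

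Glucocorticoid-responsive genes were low. Of 16 measured, 4 fell and none rose (25%, beside 2.11%), and 13 of 16 lay below 0, with a median of -0.16. The list averaged 7.36 to 7.47 in FVB and 7.51 to 7.77 elsewhere, with no overlap in PBS mice. In CBE mice FVB overlapped the other strains. Cdkn1a, an inhibitor of the cell cycle, read 7.39, 7.22 and 6.88 in FVB against 7.48 to 8.41 (-0.73, SE 0.11, adjusted p = 0.00314), and Sult1a1, a phenol sulfotransferase, 5.81, 5.29 and 5.76 in FVB against 6.07 to 7.20 (-0.90, SE 0.15, adjusted p = 0.00552). Fkbp5, a co-chaperone of the glucocorticoid receptor, read 5.58, 5.60 and 5.68 in FVB against 5.91 to 6.66 (-0.51, adjusted p = 0.0346; 0.0553 to 0.127 without any 1 of the FVB or C57 arrays or C3H array 1 or 3). Per1, a clock gene, differed by -0.48 (adjusted p = 0.0291), and not all 3 FVB arrays lay outside the range. For Per1, FVB (8.50 to 8.72) overlapped SV129 (8.58 to 9.23) and lay just below C3H (8.73 to 8.81), while C57 was highest (9.54 to 9.70). The adjusted p of Per1 was 0.0501 to 0.137 without any 1 of the FVB arrays, C57 array 1 or 2 or C3H array 2. With the 9 other arrays as 1 group it was 0.42. In CBE mice Per1 in FVB (8.84 to 9.40) lay within the range of the other strains (8.36 to 9.69). Mt1 and Mt2, the metallothioneins, differed by -0.06 and -0.08, and Nr3c1, the receptor itself, by -0.03, none past the test. Pdk4, a kinase of glucose oxidation, differed by 0.55 (adjusted p = 0.0512), and under 9 of the alternatives 1 member of the list rose. The count of 4 was 2 without any 1 of the FVB arrays, without C57 array 1 or 2 or with an ordinary linear model, and 1 with the 9 other arrays as 1 group.

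**Figure D3:**
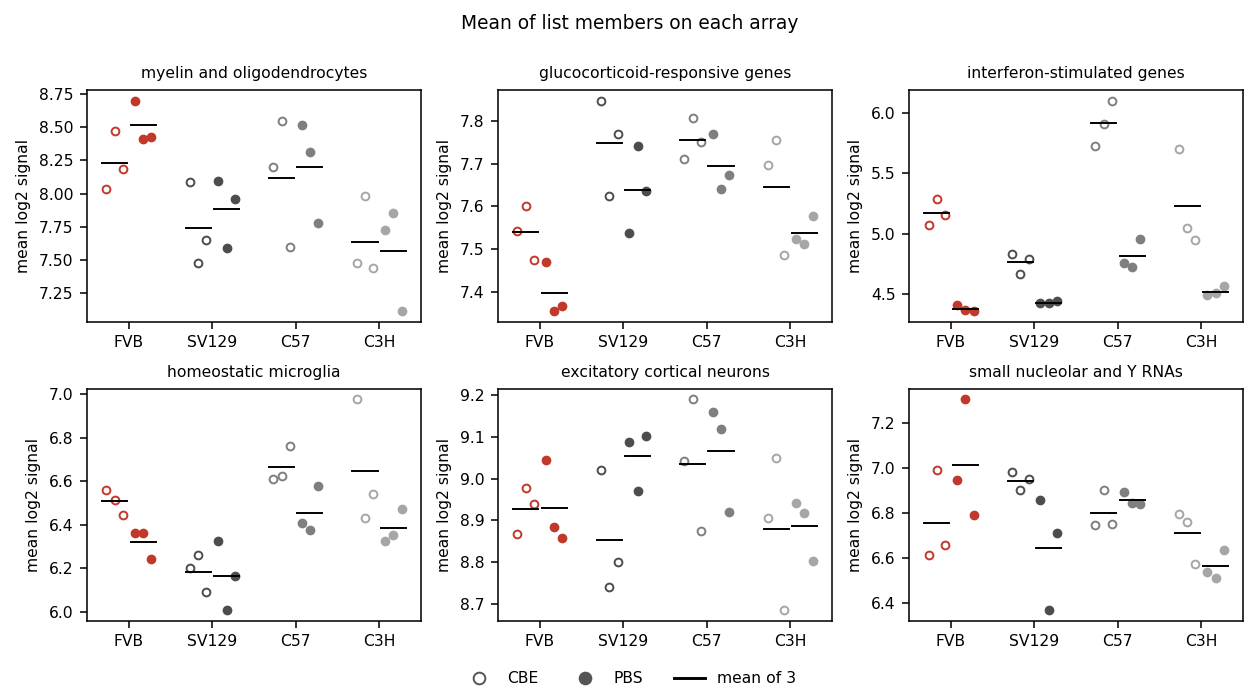
Mean log2 signal of the members of 5 gene lists and of 84 small RNA probe sets on each array; open circles are CBE mice, filled circles PBS mice, bars means of 3 arrays. Among filled circles FVB lies below the other strains for the glucocorticoid list (7.36 to 7.47 against 7.51 to 7.77) and overlaps them for myelin (8.41 to 8.70 against 7.11 to 8.52).

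In vessels, Slco1a4, an organic anion transporter of the blood-brain barrier, read 7.23, 7.53 and 7.15 in FVB and 7.73 to 8.37 (median 8.25) elsewhere, a difference of -0.87 (SE 0.09, adjusted p = 0.000195) that passed against each strain. The other endothelial calls were weaker: Slc2a1, the glucose transporter (-0.40, adjusted p = 0.0219; 0.104 without FVB PBS array 2 and 0.12 without array 3), Vwf, a clotting factor carrier (-0.38, 0.0494; 0.0539 to 0.174 without any 1 array other than SV129 2 and C57 3), and Kdr, a receptor of VEGF (0.52, 0.0453; 0.0514 to 0.182 without any 1 array other than SV129 1 and 3, FVB 3 and C3H 3). In the fit of all 24 arrays they had adjusted p-values of 0.0518, 0.42 and 0.0609. With Slco1a4, 1 rose and 3 fell among 14 endothelial genes (7.14% and 21.4%, beside 0.906% and 2.11%), and the median was -0.01. Kcnj10, the potassium channel Kir4.1 of glia, was not in the astrocyte list and was the 1 change among 29 voltage-gated and related channel genes (3.45%, beside 0.906% of all genes). It was high at 9.94, 10.04 and 9.82 in FVB against 8.77 to 9.55 (0.70, SE 0.09, adjusted p = 0.000969), past the test against each strain. Glul, glutamine synthetase, was low at 11.88 ± 0.11 in FVB (SD, n = 3) against 12.11 to 12.32 (-0.34, adjusted p = 0.0104; 0.0559 without FVB PBS array 1 and 0.0534 without array 3), and was the 1 change among the 16 genes of the astrocyte list (6.25%, beside 2.11% of all genes).

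Neuronal receptors differed little in size, yet some with no overlap. Gria1, an AMPA receptor subunit, read 10.14, 10.03 and 10.18 in FVB and 10.28 to 10.63 elsewhere (-0.33, SE 0.06, adjusted p = 0.0104; 0.0765 without FVB PBS array 2). Gria3, another AMPA subunit, fell by 0.29 (adjusted p = 0.022; 0.0624 without FVB PBS array 1 and 0.119 without array 2), and these were the 2 changes among 22 glutamate receptor genes (9.09%, beside 2.11% of all genes). Gabra5, a subunit of extrasynaptic GABA-A receptors, read 10.28, 9.92 and 10.18 in FVB and 10.31 to 10.82 elsewhere (-0.47, adjusted p = 0.0152; 0.0984 without FVB PBS array 2), the 1 change among 18 GABA and glycine receptor genes (5.56%). Fezf2, a factor of deep-layer projection neurons, fell by 0.54 (adjusted p = 0.022; 0.11 without FVB PBS array 2 and 0.0873 without array 3). Rasgrf2, a guanine nucleotide exchange factor of upper layers, fell by 0.38 (adjusted p = 0.0493; 0.0638 to 0.171 without any 1 array other than SV129 1 and C57 1). The other 14 of 16 excitatory neuron markers did not pass (12.5% fell, beside 2.11% of all genes), and the median of the list was 0.00.

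The lysosome and the glycolipid pathway bear on what CBE inhibits. Of 38 lysosomal genes, Lipa, the acid lipase, rose: 8.85, 8.49 and 8.80 in FVB against 8.01 to 8.21 (0.60, SE 0.08, adjusted p = 0.000837), past the test against each strain. Ctsh, a cathepsin, read 5.59, 5.62 and 5.23 in FVB against 5.73 to 6.34 (-0.54, adjusted p = 0.00734). Man2b1, a mannosidase, differed by -0.78 (adjusted p = 0.00124), but not all 3 FVB arrays lay outside the range. These were 1 rise and 2 falls among the 38 (2.63% and 5.26%, beside 0.906% and 2.11% of all genes), whose median was -0.04. Of 25 glycosphingolipid genes, Sptlc2, a subunit of the enzyme that starts sphingolipid synthesis, fell by 0.37 (8.59, 8.44 and 8.49 in FVB against 8.77 to 8.96, adjusted p = 0.00351), and Gltp, a glycolipid transfer protein, rose by 0.51 (adjusted p = 0.0282; 0.0509 to 0.111 without FVB array 1, 2 or 3 or SV129 array 3), so 4% changed in each direction.

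**Figure D4:**
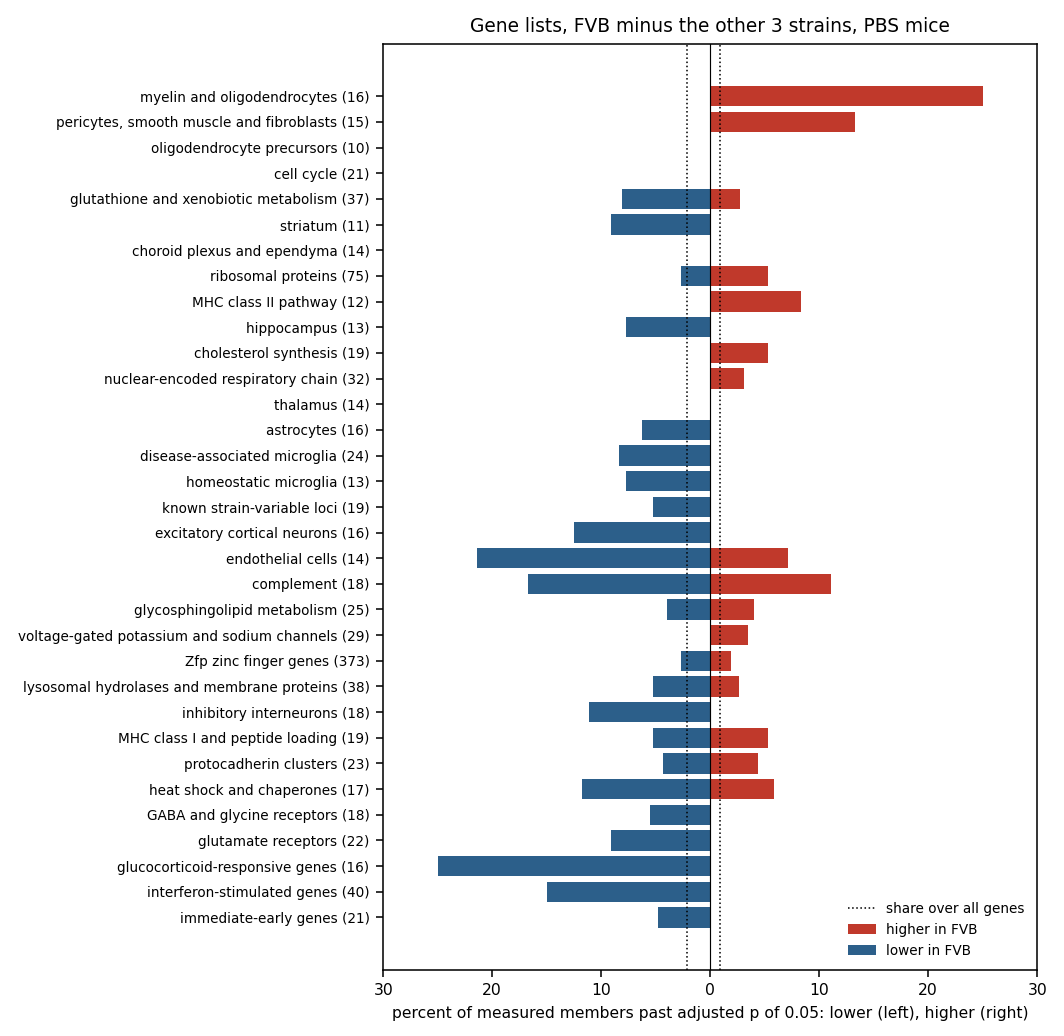
Share of the measured members of each gene list that were lower (left) or higher (right) in FVB at an adjusted p under 0.05, PBS mice; the number measured is in brackets, lists are ordered by median difference, and dotted lines are the shares over all genes (2.11% lower, 0.906% higher). Myelin genes reach 25% higher and glucocorticoid-responsive genes 25% lower.

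Among small nucleolar, Cajal body and Y RNAs, 12 of 84 probe sets rose and 1 fell (14.3% and 1.19%, beside 0.944% and 2.06% of all probe sets), with a median of 0.31. Their mean was 6.94, 7.30 and 6.79 on the FVB arrays and 6.37 to 6.89 (median 6.71) on the others, so FVB array 3 overlapped the other strains. Y RNAs scaffold the Ro protein, and the others guide the modification of ribosomal and spliceosomal RNA. The neighbours Snora61 and Snord99, named after their values were seen, differed in opposite directions: Snora61 read 6.61, 7.21 and 6.38 in FVB against 5.46 to 6.31 (1.04, adjusted p = 0.00215), and Snord99 read 9.67, 9.57 and 9.33 in FVB against 10.53 to 10.89 (-1.22, adjusted p = 2.74e-06).

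A change against the mean of 3 strains did not always set FVB apart. At 337 of the 707 calls, not all 3 FVB arrays lay outside the range of the other arrays. Serpina3n, an acute-phase protease inhibitor of reactive astrocytes, had the largest of these apart from the predicted gene Gm3893, whose 3 probe sets differed by 2.31 to 3.33 with FVB below C57. Serpina3n read 9.61, 9.54 and 9.67 in FVB, while the group means were 9.61 in SV129, 6.61 in C57 and 6.15 in C3H. FVB and SV129 thus shared a high level, and the contrast of 2.15 (adjusted p = 2.91e-07) reflects C57 and C3H; the Serpina3 genes of the mouse are close copies and may share probes. Xirp2, an actin-binding repeat protein, was shared with C57 (7.80 to 7.89 in FVB, C57 mean 7.93, SV129 and C3H means 6.06 and 6.10), and D5Ertd579e with C3H (8.98 to 9.22 in FVB, C3H mean 9.10). Glo1, the glyoxalase that clears methylglyoxal, read 8.68, 8.65 and 8.63 in FVB, near C57 (8.74) and below SV129 (9.79) and C3H (9.68). Erdr1 (1.42), Rps13 (1.31) and Ccl27a (-1.16) also passed with overlap, and Rps13 was low in SV129 alone (mean 4.54).

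Where a gene has several probe sets, the values above are those of 1 of them, and the others could differ. The further probe sets of Sez6l2 differed by 0.64 and 0.13, that of Cd209a by 0.03, of Pstpip2 by 0.00, of Lgals3bp by -0.23, of Glul by -0.12, of Slc2a1 by 0.00, of Xirp2 by -0.04, of Ccl27a by 0.08 and of Erdr1 by 0.45. Those of D5Ertd579e differed by -0.22 to 0.16. Many of these further probe sets were dim, with FVB means of 3.31 for Xirp2, 3.35 for Pstpip2 and 3.73 for Cd209a, whereas that of Sez6l2 at 0.13 was bright (9.44).

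Other lists held few changes. Of 21 immediate-early genes 1 fell (4.76%, beside 2.11% of all genes), though 18 lay below 0, with a median of -0.20. Their mean signal was 7.03 to 7.27 in FVB and 6.72 to 7.88 elsewhere, and their median difference in CBE mice was 0.22. Of 37 glutathione and xenobiotic genes 1 rose and 3 fell (2.7% and 8.11%, beside 0.906% and 2.11% of all genes): Cyp2d22, a cytochrome P450 (0.71, adjusted p = 0.000892), Gsr, glutathione reductase (-0.55, 0.00314), Maob, a monoamine oxidase (-0.43, 0.00314), and Glo1. In none of them did all 3 FVB arrays lie outside the range of the other strains, and none passed with the 9 other arrays as 1 group. Of 18 interneuron markers 2 fell (11.1%, beside 2.11%). Htr3a, a serotonin receptor channel, averaged 3.82 in FVB against 4.01 in SV129, 4.82 in C57 and 4.56 in C3H (-0.64, adjusted p = 0.0063; 0.222 with the 9 other arrays as 1 group), the FVB arrays overlapping those of SV129, and Npy, a neuropeptide, differed by -0.39 (adjusted p = 0.0344). Npy had an adjusted p of 0.0507 to 0.145 without any 1 of the FVB arrays, C57 array 1 or 2 or C3H array 1 or 3. Its FVB arrays (9.52 to 9.68) lay within the range of SV129 (9.29 to 9.74) and below C57 (10.14 to 10.31) and C3H (10.12 to 10.32). With the 9 other arrays as 1 group the adjusted p of Npy was 0.432. Of 13 hippocampal markers 1 fell (7.69%). Ociad2 read 8.67 to 8.81 in FVB against 8.83 to 9.90 (-0.46, adjusted p = 0.0177; 0.0985 without FVB PBS array 2 and 0.0648 without array 3).

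Among 373 zinc finger genes of the Zfp series 7 rose and 10 fell (1.88% and 2.68%, beside 0.906% and 2.11% of all genes), the falls being near the share of all genes. Zfp9 read 8.10, 7.81 and 7.93 in FVB against 8.17 to 8.52 (-0.44, adjusted p = 0.00356), whereas Zfp605 (1.11, adjusted p = 3.32e-05) was shared with C3H (means of 6.53 in FVB and 6.61 in C3H). None of the 21 cell cycle genes changed (median difference 0.06), which says little beside the same shares of all genes.

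Just inside the threshold lay Gdap2, Ppp1r3b, Tmem86b and Timp2 with differences of -0.27, 0.35, -0.23 and -0.32, and just outside it Tdrkh, Ehd3, Zdhhc22 and Sdf2l1 with 0.24, -0.41, -0.34 and -0.38. Genes that could check the strain labels gave no reading: Tyr, Pde6b and Hc, which carry known alleles in some of these strains, read 3.38 to 3.50, 3.35 to 3.58 and 3.46 to 3.53 in FVB, and 3.27 to 3.57, 3.33 to 3.51 and 3.29 to 3.68 elsewhere, near the bottom of the scale. Of 4 sex-linked genes Uty, on the Y chromosome, differed by -0.71 (adjusted p = 0.00525), with strain means of 7.41 in FVB, 8.02 in SV129, 7.59 in C57 and 8.74 in C3H.

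The CBE mice gave the same strain contrast in animals that the choice of genes had not used. There FVB differed at 674 probe sets (2.87%), 219 higher (0.931%) and 455 lower (1.93%); without any 1 of the FVB CBE arrays the count was 296 to 350. Of the 370 probe sets that stood apart in PBS mice, 358 (96.8%) had the same sign in CBE mice, beside 65.9% of all probe sets tested. At 149 of the 370 (40.3%) the difference also passed the test in CBE mice, and at 142 (38.4%) all 3 FVB CBE arrays lay outside the range of the 9 other CBE arrays. That share was 26.2% for those above the range and 44.4% for those below, beside 1.39% of all probe sets above and 2.33% below the other CBE arrays. The median size of the difference was 0.30 in CBE mice, in the direction of PBS mice, and 0.43 in PBS mice. The 370 had been chosen by adjusted p and range in PBS mice, which favours large differences there.

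Cd59a differed by 1.40 in CBE mice, Hspa1b by 1.67, Zfp982 by 1.17, Lmcd1 by 1.07, Kcnj10 by 0.77 and Lipa by 0.52, each past the test. Aldh1a1 differed by -1.05, Alg1 by -1.37, Slco1a4 by -1.01, Fgf1 by -0.78, Stat2 by -0.70 and Cdkn1a by -0.78, also past it. C1qb and C1qc differed by -0.26 and -0.51 in CBE mice and did not pass (adjusted p = 0.596 and 0.0968), and the FVB arrays overlapped the others for both. Whether these differences depended on the agent was tested across all 24 arrays, and 1 probe set passed (0.00425%; 1160 had an unadjusted p under 0.05). It was not among the 370, for which the smallest adjusted p was 0.116. H2-Ab1 read 8.39, 6.22 and 5.53 in FVB CBE mice and 4.02 to 4.63 in the other CBE mice; its difference of 2.43 in CBE mice and of 0.71 in PBS mice was not separated by that test (adjusted p = 0.977). Myelin genes had a median difference of 0.37 in CBE mice and 0.68 in PBS mice, and small RNAs -0.02 in CBE mice and 0.31 in PBS mice. Glucocorticoid-responsive genes had a median of -0.09 in CBE mice and -0.16 in PBS mice. For interferon-stimulated genes it was -0.16 in CBE mice and -0.19 in PBS mice. In CBE mice 3 genes of the glucocorticoid list and 1 of the interferon list fell, and FVB overlapped the other strains in the mean of both lists.

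**Figure D5:**
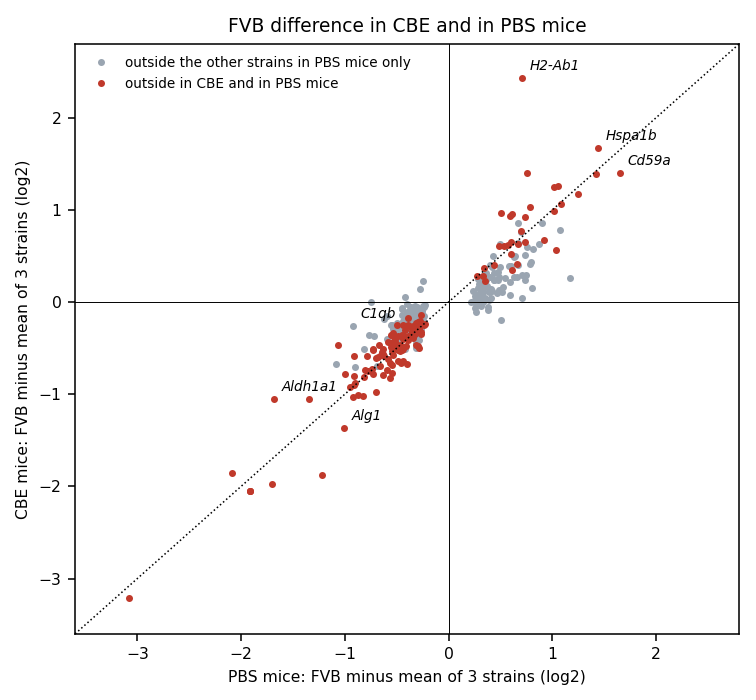
Difference between FVB and the mean of the other 3 strains (log2) in PBS mice (x axis) and in CBE mice (y axis) for the 370 probe sets that stood apart in PBS mice. Red points (142) lay outside the range of the other strains in CBE mice too, the dotted line marks equal differences, and 358 of the 370 points have the same sign on both axes.

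Some genes that stood apart are neighbours on the chromosome. Of the 365 genes, 28 (7.67%) had an adjacent tested gene that also stood apart, beside 691 of the 21774 other genes (3.17%). They formed 14 pairs, 9 of which differed in the same direction, among them Aldh1a1 with E030003E18Rik, C1qb with C1qc, Hspb3 with Arl15 (-0.92 and -0.81), Vav1 with Adgre1 (-0.44 and -0.72) and Gabra5 with Atp10a (-0.47 and -0.42). Hddc2 and Tpd52l1 were a pair of opposite sign (0.74 and -0.82). The pairs were named after their values were seen, and adjacent genes are not independent.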

How the data were processed

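RNA of 1 cortex slice per mouse was labelled from 100 ng with a whole-transcript kit, per the labels' protocols. The authors deposited log2 values, 1 per probe set and array; Partek and RMA (robust multi-array average) are named in the submitters' processing notes, with versions and order of steps not given in the sources used here. The log base was inferred from the range of the values. Gene symbols came from the platform annotation: 1814 probe sets with several symbols and 15699 with none given were not used. Scanner files and scan dates were not used here, so a batch by scan could not be examined. The number of arrays limits the precision.

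limma 3.58.1 in R 4.3.3 was fitted to the 12 PBS arrays with 1 mean per group (residual degrees of freedom 8, prior 5.01), all tests two-sided with Benjamini-Hochberg adjustment over 23521 probe sets. The CBE arrays were fitted alone, and all 24 for the dependence on the agent. Dim probe sets were kept. For a gene with several probe sets in a list, the one with the highest PBS mean was used. Among the largest changes it was the probe set with the largest difference. Figures used Python 3.11.15 with matplotlib 3.10.9. Gene order came from a RefSeq table on GRCm38.p6; the authors' build is not given in the sources used here, and coordinates are printed for RefSeq sequences alone.

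Named were the 15 largest rises and 15 largest falls that stood apart, and the 6 largest calls that did not stand apart. Also named were up to 4 members per list that passed, label-check genes, and genes whose contrast depended on the agent. So were 4 genes on each side of the threshold. Predicted genes, clones, small RNAs and receptor families were counted and not named, except where said. The members, lists and rules were chosen with earlier results of these data known. The fit was tested on simulated data. Deviations from the group means were correlated between FVB arrays and same-numbered arrays of the other strains, at -0.184 to 0.171. The 3 of 9 pairs over 0.1 were all of number 1 (0.118 to 0.171), while pairs of different numbers ran from -0.182 to 0.245. Numbers were not taken to pair the mice, and what the number 1 arrays share was not tested. Alternatives covered the arrays and probe sets fitted, scaling, a filter, the variance model, the weight of the strains, a replicate block and each array left out.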

Additional observations from a re-analysis of the deposited data

Results flagged for a closer look

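Cxcl13, a chemokine that attracts B cells, was the 1 gene whose difference between FVB and the other strains differed by agent in the test across all 24 arrays. FVB minus the mean of the other 3 strains was 2.68 in CBE mice and -0.63 in PBS mice, so the contrast differed by 3.31 on the log2 scale (limma, adjusted p = 0.00193). In CBE mice FVB read 8.51, 9.49 and 8.61 and the other strains 5.14 to 7.67, without overlap. In PBS mice FVB read 4.55, 4.35 and 4.59 and the other strains 4.69 to 6.67, with FVB below all 9, although that difference did not pass (adjusted p = 0.224; 0.0101 without SV129 PBS array 1). Without any 1 of the 24 arrays, or with arrays centred on their median or quantile normalized, the difference by agent was 3.0 to 3.49 and passed each time, with the highest adjusted p, 0.0201, without FVB CBE array 2. Its cause was not tested.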

How the results depend on the processing

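The counts of calls depended most on how the error was estimated and on single arrays. With an ordinary linear model in place of moderated variances, 333 probe sets passed and 210 of them stood apart, and 379, 998 and 192 passed against SV129, C57 and C3H. With the 9 other arrays as 1 group, both counts were 113. Leaving out each array in turn gave 283 to 1044 calls, 202 to 572 that stood apart, 391 to 938 against SV129, 846 to 1793 against C57 and 217 to 521 against C3H. It gave 296 to 688 in CBE mice, and 1 to 6 for the difference by agent. The other alternatives kept each of these counts within 1.5 times the reported one. The replicate number as a block gave 648 calls, of which 330 stood apart, and 657, 1483 and 410 against single strains. The 3 of 9 same-numbered pairs that correlated above 0.1 were all of number 1, and the labels do not say what the numbers stand for. Of 93 named genes past the threshold, 19 passed under every alternative, 74 lost the call under at least 1 of up to 22, and none changed sign. Those 19 were Cd59a, Hspa1b, Zfp982, Lmcd1, Psmc3ip, Rpl32l, Ccl28, Scoc, Lipa, Aldh1a1, Alg1, Fgf1, Cth, Pstpip2, Slco1a4, Tpd52l1, Stat2, Sptlc2 and Zfp9. The alternatives for gene lists, and for leaving out arrays in CBE mice and in the difference by agent, were chosen after seeing the data. Signals near the bottom of the scale limit what can be seen: in 42.4% of the probe sets tested the highest group mean lay under the median of all values. The causes of these shifts were not tested, apart from the smaller number of arrays where one was left out.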

Other observations

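Rny3 and Rny1, a pair of adjacent Y RNA genes named after their values were seen, were both higher in FVB. Rny1 read 12.36, 12.50 and 12.50 in FVB and 11.42 to 12.17 elsewhere (0.66, adjusted p = 0.019), and Rny3 read 9.99, 10.79 and 10.26 in FVB and at most 9.86 elsewhere (0.73, adjusted p = 0.0303). Dennd2a, an exchange factor of membrane trafficking, differed by -0.20 in CBE mice (adjusted p = 0.328) and by 0.50 in PBS mice (adjusted p = 0.00178), in the second with no overlap. Its difference by agent had an adjusted p of 0.116 and did not pass. Among 511 microRNA genes 3 rose and 3 fell (0.587% each), and among 1445 chemosensory receptor genes 2 rose and 1 fell (0.138% and 0.0692%), all below the shares of all probe sets (0.944% higher and 2.06% lower).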
